A study of Mus musculus with 8 samples.

Results

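The basement membrane is the thin sheet of matrix that wraps muscle fibres, blood vessels and nerves. Laminin trimers, each of an alpha, a beta and a gamma chain, form a sheet at the cell surface, collagen IV forms a second network, and nidogens and the heparan sulphate proteoglycan perlecan join the networks. In muscle, interstitial stromal cells contribute these proteins together with the fibres, the vessel wall and Schwann cells. The 10 genes described here encode the laminin chains Lama2, Lama4, Lamb1, Lamb2 and Lamc1, the nidogens Nid1 and Nid2, perlecan (Hspg2) and the collagen IV chains Col4a1 and Col4a2. They were taken by name, and each stood on 1 of the 23846 rows of the deposited table.

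Transcript abundance was measured by polyA RNA sequencing in mesenchymal progenitors, the stromal cells between the fibres, sorted by flow cytometry out of the hindlimb muscles of C57BL/6J mice. All libraries came from Hic1CreERT2/CreERT2;Rosa26LSLtdTomato/+ animals, so CreERT2 stood on both Hic1 alleles at every time point and the sorted tdTomato cells are those in which Hic1-driven Cre had acted, or their descendants. The mice were 8 weeks old when tamoxifen was given (2.5 mg a day for 5 days, then 10 days of washout). The groups were 1 quiescent library and 1 library each from days 1, 2, 3, 4, 5, 7 and 10 after muscle injury with the venom toxin notexin. Whether a library holds 1 animal or several is not stated. With 1 library per time point there was no spread between animals to set a difference against, and no test was made.

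Values are FPKM, which are per transcript length and per mapped fragment, so levels can be compared between genes. The steps between low FPKM values put the depth at 10.65 to 28.35 M fragments per library. Each member then rested on at least 439 fragments in every library, and the counting error (SE) of a member's log2 difference from quiescent was at most 0.074. In bulk RNA, fewer cells of a type and less RNA per cell cannot be told apart. All 10 markers of mesenchymal progenitors were detected in every library, with Pdgfra between 77.0 and 153 FPKM and Ly6a between 953 and 1682 FPKM. At day 1, however, 5 of the 10 were called lower by the rule given below (Hic1, Pdgfrb, Dcn, Cd34 and Thy1), where 12.5% of all rows were. None was higher (median of the 10 log2 differences -0.99), where 22.5% of all rows were. When rescaled to a common FPKM sum, 7 were lower, where 24.7% of all rows were. Hic1 was 20.6 FPKM at day 1, against 52.2 FPKM in quiescent. FPKM summed to 673684 at day 1 and 718618 at day 2, against 463650 in quiescent, so the scaling matters for these days.

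Col4a1 and Col4a2 lie head to head on chromosome 8, and promoter windows of 7 of the 10 members were found in RefSeq (GRCm38.p6, the same assembly as the mm10 of the table). Each window runs from 250 bases before to 50 bases after the start of the gene. The windows of the collagen IV pair are shown first because they share 78 bases, in capitals, read on opposite strands.
Col4a1, chr8:11312777-11313076, minus strand: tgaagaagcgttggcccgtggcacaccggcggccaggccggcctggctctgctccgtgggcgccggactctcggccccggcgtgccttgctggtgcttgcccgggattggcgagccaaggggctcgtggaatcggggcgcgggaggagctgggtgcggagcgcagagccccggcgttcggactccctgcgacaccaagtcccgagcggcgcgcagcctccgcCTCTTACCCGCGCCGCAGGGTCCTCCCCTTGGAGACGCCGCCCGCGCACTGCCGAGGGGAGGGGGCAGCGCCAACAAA
Col4a2, chr8:11312555-11312854, plus strand: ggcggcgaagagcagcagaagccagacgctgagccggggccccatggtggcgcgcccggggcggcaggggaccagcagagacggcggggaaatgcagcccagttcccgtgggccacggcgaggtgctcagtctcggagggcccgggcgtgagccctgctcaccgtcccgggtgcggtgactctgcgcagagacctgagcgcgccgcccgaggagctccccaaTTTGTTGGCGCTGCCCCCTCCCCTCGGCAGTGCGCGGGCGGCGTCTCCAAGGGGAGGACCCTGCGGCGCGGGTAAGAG

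The laminin windows are shown because Lama2 and Lamb2 were the laminin chains farthest below quiescent at day 1, while Lamb1 parted from Lamb2 at later days. Capitals mark any match, on either strand, to these motifs: the GC box (GGGCGG), the box bound by NF-Y (CCAAT), the core promoter element known as the TATA box (TATAAA) and the consensus bound by AP-1 factors (TGACTCA).
Lama2, chr10:27616893-27617192, minus strand: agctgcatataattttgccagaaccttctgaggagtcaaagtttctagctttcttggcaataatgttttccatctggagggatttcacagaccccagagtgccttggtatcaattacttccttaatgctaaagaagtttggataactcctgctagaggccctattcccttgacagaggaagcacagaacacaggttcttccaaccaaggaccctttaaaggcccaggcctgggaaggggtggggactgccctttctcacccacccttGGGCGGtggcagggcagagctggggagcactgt
Lamb2, chr9:108479612-108479911, plus strand: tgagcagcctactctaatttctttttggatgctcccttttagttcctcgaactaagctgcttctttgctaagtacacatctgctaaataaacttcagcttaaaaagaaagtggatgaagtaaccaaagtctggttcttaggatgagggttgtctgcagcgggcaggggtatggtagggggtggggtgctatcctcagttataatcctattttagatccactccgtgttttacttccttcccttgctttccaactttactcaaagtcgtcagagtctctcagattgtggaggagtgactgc
Lamb1, chr12:31265043-31265342, plus strand: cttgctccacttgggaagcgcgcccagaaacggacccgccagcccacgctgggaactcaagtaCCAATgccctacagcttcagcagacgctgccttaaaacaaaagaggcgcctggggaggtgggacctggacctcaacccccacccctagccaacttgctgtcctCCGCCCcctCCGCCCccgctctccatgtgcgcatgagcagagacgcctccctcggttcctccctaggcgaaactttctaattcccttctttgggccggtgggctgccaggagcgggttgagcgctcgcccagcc

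The 7 windows differ in their CpG content. The Lama2 window holds 1 CpG and the Lamb2 window 4, against a median of 7 over 32851 mouse windows of the same length. The Lamb1 window holds 18, that of Nid1 20, that of Hspg2 27, that of Col4a2 33 and that of Col4a1 37. GGGCGG stands in 35.7% of all windows, CCAAT in 37.4%, TATAAA in 13.6% and TGACTCA in 5.20%. None of the 7 windows holds TATAAA or TGACTCA in these letters, and Hspg2 has 5 matches to GGGCGG. These matches describe the letters only.

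Most basement membrane genes were lower than in quiescent on days 1 to 3 and close to it on days 7 and 10. A gene was called when its log2(FPKM + 1) differed by at least 1 (2-fold on that scale) with 5 FPKM or more in the higher library. At day 1, 6 of the 10 members were called lower (Lama2, Lamb1, Lamb2, Nid1, Nid2 and Hspg2), against 12.5% of the 8701 rows tested. At day 2, 6 were called lower (Lama2, Lamb2, Lamc1, Nid1, Col4a1 and Col4a2), against 10.9% of rows. At day 3, 5 were called lower (Lama2, Lamb2, Lamc1, Nid1 and Hspg2), against 8.26% of rows. No member was called higher at these days, where 22.5%, 23.7% and 15.7% of rows were.

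The median log2 difference of the 10 members was -1.02, -1.11 and -0.73 at days 1, 2 and 3, beside 0.26, 0.29 and 0.21 over all rows tested. The 5 progenitor markers called lower at day 1 are given above, and whether the members moved with them was not tested. All 10 members lay below quiescent at days 1 and 2. The members have long transcripts, and long transcripts moved differently from short ones here. Over the 1700 other rows whose longest transcript is at least as long as the shortest among the members' own longest coding transcripts (4876 bases), the median was -0.060 at day 1 with 15.9% called lower, -0.21 at day 2 with 17.0% and -0.15 at day 3 with 13.6%. Rescaled to a common FPKM sum, all 10 members were called lower at day 1 and at day 2, against 24.7% and 25% of rows.

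From day 4 on few members were called on the deposited values. At day 4 no member was called, where 4.56% of rows were higher and 2.16% lower. At day 5 only Lamb2 was called, lower, where 8.42% of rows were higher and 4.61% lower. Among rows with long transcripts 10.5% were lower at day 5, with a median of -0.29. At day 7 (4.01% of rows higher, 2.45% lower) and day 10 (3.09% and 1.21%) none was called. The members' median was -0.27, -0.25, 0.08 and 0.11 at days 4, 5, 7 and 10, and the day 7 median turned negative under each rescaling tried.

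**Figure D1:**
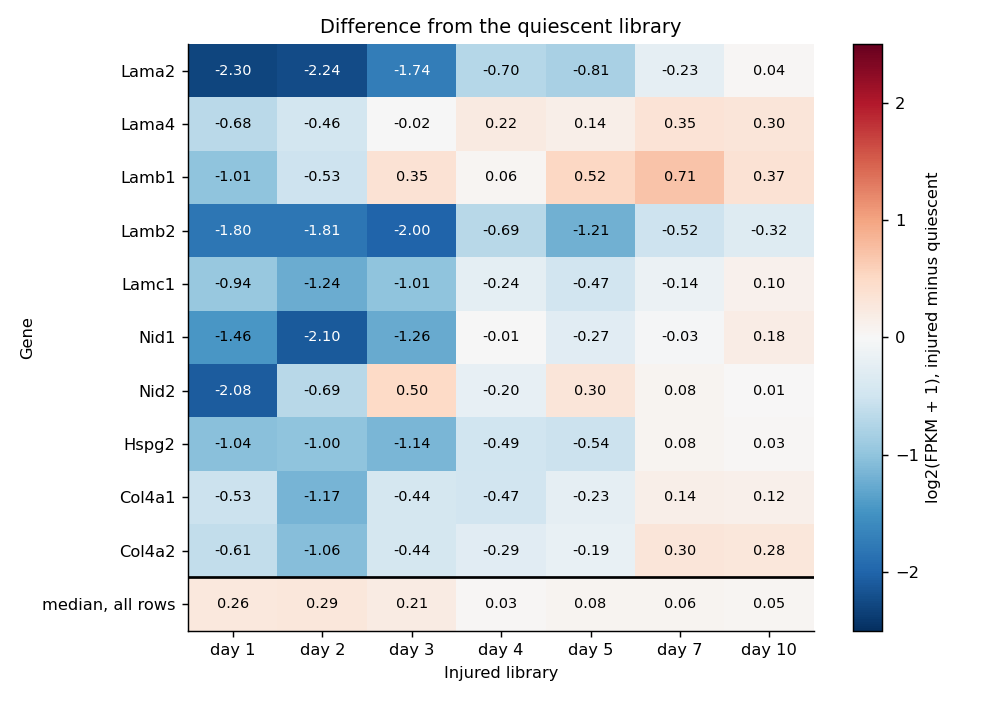
Difference in log2(FPKM + 1), injured minus quiescent, for each gene (rows) and injured library (columns), with the median over all rows tested at the bottom. Blue fills days 1 to 3 for most genes, Lama2 being at -2.30 at day 1, and the day 10 column lies between -0.32 and 0.37.

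As a share of all FPKM in a library, the 10 members together made up 0.419% in quiescent, then 0.139%, 0.108%, 0.181%, 0.311%, 0.259%, 0.370% and 0.444% at days 1, 2, 3, 4, 5, 7 and 10. The lowest share stood at day 2.

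The laminin alpha chains differed most on days 1 to 3. Lama2 (chromosome 10, 26981285 to 27616942) encodes the alpha chain of the mature muscle fibre's basement membrane, whose loss causes a congenital muscular dystrophy. It measured 90.7 FPKM in quiescent and 17.6, 18.4, 26.5, 55.3, 51.3, 77.0 and 93.0 FPKM at days 1, 2, 3, 4, 5, 7 and 10. At day 1 Lama2 stood at 19.5% of its quiescent level (log2 difference -2.30), the largest difference from quiescent among the members in any library on the deposited scale. Rescaled to a common sum, Lama2 was lowest at day 2 instead (-2.85, and -2.82 at day 1). It was still at 60.98% at day 4 and was back at its quiescent level at day 10.

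Lama4 (chromosome 10, 38965515 to 39110188), the alpha chain best known from vessel and nerve basement membranes, measured 85.8 FPKM in quiescent and 53.2, 62.2, 84.7, 99.8, 94.5, 109.5 and 106 FPKM at the 7 days in order. It was called at none of them on the deposited values, its lowest point being day 1 (-0.68). Scaling all libraries to 1 FPKM sum brought Lama4 past the limit at days 1 and 2 (-1.21 and -1.08).

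The ratio of Lama4 to Lama2 within a library does not depend on the scaling. It was 0.95 in quiescent, then 3.01, 3.38, 3.20, 1.80, 1.84, 1.42 and 1.14 at days 1, 2, 3, 4, 5, 7 and 10. The 95% counting interval was 3.20 to 3.57 at day 2 and 0.92 to 0.97 in quiescent, an interval that covers counting error only. The alpha chain transcripts were thus near even in quiescent, and Lama4 was the more abundant in every injured library, most so on days 1 to 3.

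The beta chains crossed over. Lamb1 (chromosome 12, 31265294 to 31329639), the widely expressed beta chain, measured 107 FPKM in quiescent and 52.8, 74.1, 137, 111.5, 154.5, 176 and 139 FPKM at the 7 days. Lamb2 (chromosome 9, 108479862 to 108490530), the beta chain of the neuromuscular junction and the kidney filter, measured 255 FPKM in quiescent and 72.4, 72.4, 63.2, 158, 110.1, 177 and 205 FPKM. On the deposited values Lamb1 was called lower at day 1 only, by a narrow margin (-1.01). Rescaled to a common sum, Lamb1 was also lower at day 2 (-1.15). It was highest at day 7 (0.71, 0.48 when rescaled to a common sum). Lamb2 was called lower at days 1, 2, 3 and 5 and remained below quiescent in every injured library.

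The ratio of Lamb1 to Lamb2 was 0.42 in quiescent, then 0.73, 1.02, 2.17, 0.71, 1.40, 0.99 and 0.68 at days 1, 2, 3, 4, 5, 7 and 10. Lamb2 was the more abundant beta chain in quiescent and Lamb1 at day 3. Day 4 had a smaller ratio than both its neighbours. The summed FPKM of 12 macrophage markers, all detected in every library, moved the same way at these days (912 at day 3, 149 at day 4 and 516 at day 5, against 34.3 in quiescent), and their part in the ratio was not tested.

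Lamc1 (chromosome 1, 153218922 to 153332786), the gamma chain shared by most laminins, measured 190.5 FPKM in quiescent and 98.8, 80.2, 93.9, 161, 137, 173 and 205 FPKM at the 7 days. On the deposited values it was called lower at day 2 and, by a narrow margin, at day 3 (-1.01). It stood just short of a call at day 1 (-0.94). Its lowest point was at day 2, a day after that of Lama4 and Lamb1. The alpha chains summed to between 0.72 (day 1) and 1.18 (day 3) times Lamc1, and the beta chains to between 1.27 (day 1) and 2.13 (day 3) times Lamc1. The alpha sum over the beta sum stayed between 0.49 and 0.58 in all 8 libraries, while the chains within each sum changed places.

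**Figure D2:**
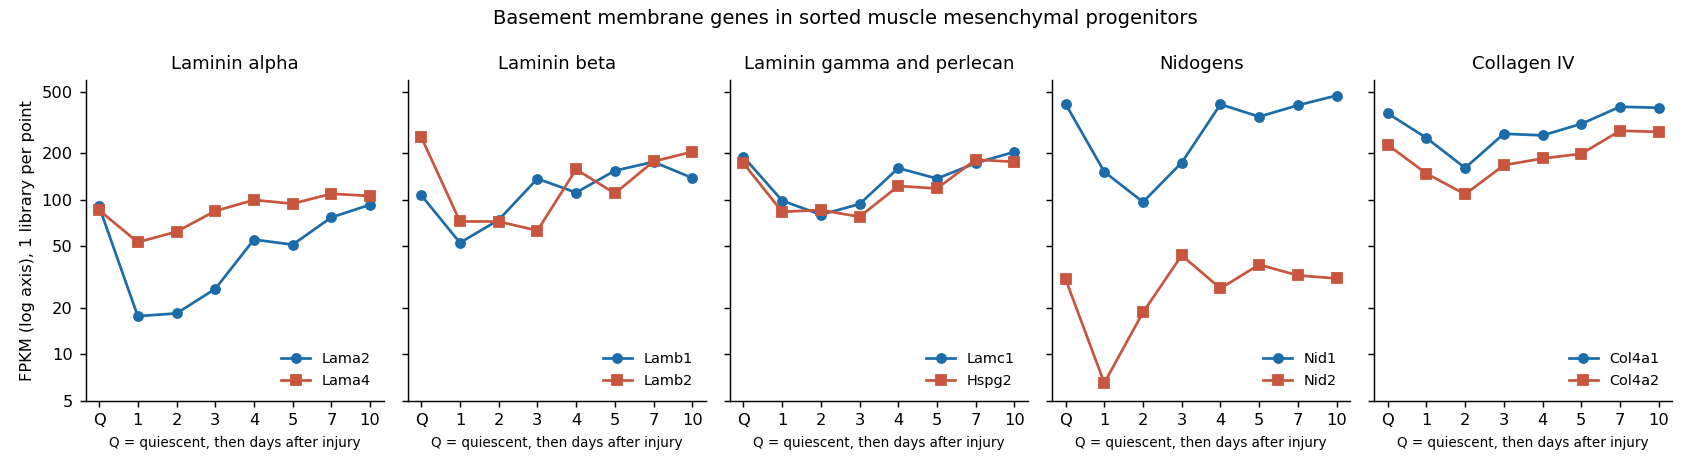
FPKM (log axis) of the 10 genes in the 8 libraries, each point 1 library, spaced evenly from quiescent (Q) to day 10. Lama2 drops to 17.6 FPKM at day 1 while Lama4 stays at 53.2 FPKM or more, Lamb1 and Lamb2 cross, and the collagen IV chains run in parallel.

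The nidogens, which bind laminin and collagen IV at once, had low points a day apart. Nid1 (chromosome 13, 13437602 to 13512275) was the most abundant member in quiescent, with 419 FPKM. It measured 152, 96.8, 174, 416, 346, 409.8 and 474 FPKM at the 7 days. Nid1 was called lower at days 1, 2 and 3, least at day 2 (23.1% of quiescent), and was at 99.3% of quiescent by day 4.

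Nid2 (chromosome 14, 19751257 to 19811787) was the least abundant member in every library but those of days 2 and 3, where Lama2 was lower. It measured 30.7 FPKM in quiescent and 6.51, 18.7, 43.7, 26.7, 38.0, 32.4 and 31.0 FPKM at the 7 days. On the deposited values Nid2 was called lower at day 1 (-2.08) and at no other day. Rescaled to a common sum, Nid2 was also lower at day 2 (-1.29). Its highest value was at day 3 (0.50, but 0.07 when rescaled to a common sum). Nid2 to Nid1 was 0.073 in quiescent, then 0.043, 0.19, 0.25, 0.064, 0.11, 0.079 and 0.065 at days 1, 2, 3, 4, 5, 7 and 10. Here as well the day 4 value lay under both neighbours, the pattern beside which the marker sums are given above. The ratio of Nid2 to Nid1 was at its lowest at day 1, and the macrophage sum was 168 FPKM at that day, above quiescent. The part of any marker sum in this ratio was not tested.

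Perlecan (Hspg2, chromosome 4, 137468803 to 137570630), which holds growth factors in the matrix through its heparan sulphate chains, measured 173 FPKM in quiescent and 83.7, 85.9, 77.7, 123, 119, 182 and 176 FPKM at the 7 days. It was called lower at days 1 and 3, and its day 2 difference (-0.9995) missed the limit by a hair. Its values thus lay together from day 1 to day 3 and were back at quiescent at day 7. Perlecan to Lamc1 stayed between 0.76 and 1.07.

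The collagen IV chains moved together. Col4a1 (chromosome 8, 11198423 to 11312826) and Col4a2 (chromosome 8, 11312829 to 11449287) are transcribed away from each other from the shared stretch shown above and assemble into the common collagen IV trimer, which holds 2 Col4a1 chains and 1 Col4a2 chain. Col4a1 measured 363 FPKM in quiescent and 252, 161, 268, 262, 311, 401 and 395 FPKM at the 7 days. Col4a2 measured 227 FPKM in quiescent and 148, 109, 168, 185, 199, 280.4 and 275.5 FPKM. Both were called lower at day 2 (-1.17 and -1.06) and at no other day on the deposited values. Both were highest at day 7 as deposited and at day 10 under each rescaling (Col4a1 -0.092 at day 7 and 0.091 at day 10 at a common sum).

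Col4a1 to Col4a2 was 1.60 in quiescent, 1.70, 1.48, 1.60, 1.41, 1.56, 1.43 and 1.43 at the 7 days. The highest value of this ratio was 1.21 times the lowest. The same figure was 3.58 for Lama4 to Lama2, 5.17 for Lamb1 to Lamb2 and 5.86 for Nid2 to Nid1. Over the 8 libraries, which are time points of 1 course, Pearson's r of log2(FPKM + 1) was 0.98 between Col4a1 and Col4a2, 0.86 between Lama2 and Lama4, 0.51 between Nid1 and Nid2 and 0.46 between Lamb1 and Lamb2.

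**Figure D3:**
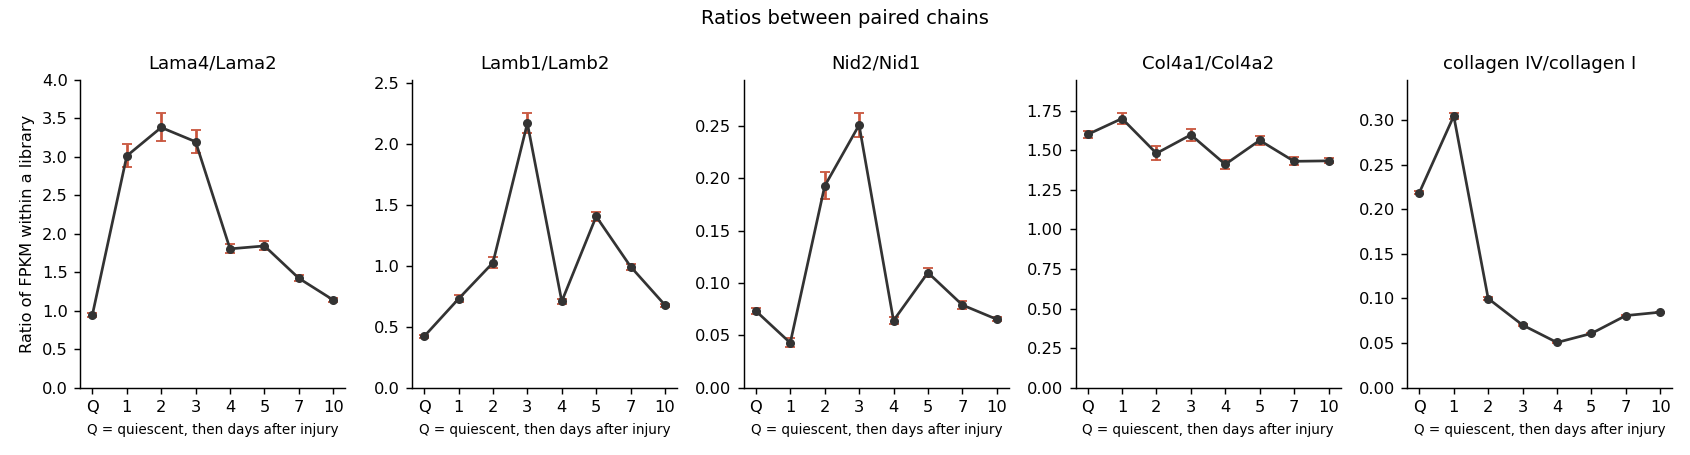
FPKM ratio within each library for Lama4/Lama2, Lamb1/Lamb2, Nid2/Nid1, Col4a1/Col4a2 and collagen IV (Col4a1 + Col4a2) over collagen I (Col1a1 + Col1a2); orange bars are 95% counting intervals and each axis starts at 0. The first 3 ratios peak at day 2 or 3, and Col4a1/Col4a2 stays between 1.41 and 1.70.

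Step by step, few members moved 2-fold between neighbouring injured libraries. From day 1 to day 2 only Nid2 was called, higher at day 2 (5.86% of rows higher, 2.95% lower). From day 2 to day 3 it was again Nid2, higher at day 3 (4.19% higher, 3.87% lower). From day 3 to day 4, Lama2, Lamb2 and Nid1 were called higher at day 4 (3.44% higher, 4.89% lower). No member was called at day 5 against day 4 (1.53% higher, 0.723% lower), day 7 against day 5 (0.84% and 1.89%) or day 10 against day 7 (0.723% and 0.605%). The summed macrophage markers were 149 FPKM at day 4, against 912 FPKM at day 3. The satellite cell and myoblast sum (21.9, against 69.2) and the pericyte and smooth muscle sum (109, against 158) were lower too. The Schwann (36.7, against 19.5), endothelial (49.1, against 15.5) and muscle fibre sums (41.5, against 34.9) were higher. The part of any of these in this step was not tested.

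The other chains of these families were low in these cells. Of 6 other laminin chains, 4 reached 1 FPKM in any library. Of 4 other collagen IV chains, 3 reached 1 FPKM, and Col4a5, a chain of the kidney filter's network, measured 1.99 FPKM at day 1, against 7.61 FPKM in quiescent. Col4a5 was highest at day 4 (13.7 FPKM).

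Among 22 further basement membrane components, 17 were measured (1 FPKM or more in any library). At day 1, 8 of these 17 were called lower and none higher (median -1.37), where 12.5% of all rows were lower and 22.5% higher. Col15a1, a collagen at the outer face of basement membranes, measured 14.7 FPKM at day 1, against 140 FPKM in quiescent. Vwa1, a perlecan-binding protein, measured 3.66 FPKM at day 1, against 28.8 FPKM in quiescent. At day 5, 2 were higher and 2 lower, where 8.42% of all rows were higher and 4.61% lower. Sparc, which binds collagen IV, measured 4424 FPKM at day 5, against 1602 FPKM in quiescent. Matn2 measured 34.1 FPKM at day 5, against 15.9 FPKM in quiescent. Ntn4, a netrin that binds laminin, measured 18.2 FPKM at day 5, against 55.2 FPKM in quiescent. At day 10, 4 were higher and none lower, where 3.09% of all rows were higher and 1.21% lower. Col18a1, the precursor of endostatin, measured 76.4 FPKM at day 10, against 30.6 FPKM in quiescent. Egflam, a ligand of dystroglycan, measured 10.1 FPKM at day 10, against 3.59 FPKM in quiescent.

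Of 18 receptors for laminin and collagen IV, 16 were measured, and 2 were called higher and 5 lower at day 1 (median -0.87). Over all rows 22.5% were higher and 12.5% lower at that day, so the count of higher receptors lies below the background. The higher receptors were syndecans, which bind matrix through heparan sulphate. Sdc4 measured 224 FPKM at day 1, against 46.8 FPKM in quiescent. Sdc1 measured 23.7 FPKM at day 1, against 7.41 FPKM in quiescent. Itga7, the laminin-binding integrin of muscle, measured 0.89 FPKM at day 1, against 9.11 FPKM in quiescent. Bcam, another laminin receptor, measured 0.93 FPKM at day 1, against 9.14 FPKM in quiescent. Both are also made by cells of the vessel wall, whose markers are given below with those of other cell types. The part of any of these cell types in the Itga7 and Bcam values was not tested. At day 5, 2 receptors were called higher and 2 lower, where 8.42% of all rows were higher and 4.61% lower. Sdc3 measured 22.5 FPKM at day 5, against 4.19 FPKM in quiescent. Ddr2, a collagen receptor kinase, measured 41.1 FPKM at day 5, against 84.3 FPKM in quiescent. Sdc1 (21.6 FPKM) and Sdc3 (9.74 FPKM) were the receptors called higher at day 10, and none was lower. Over all rows 3.09% were higher and 1.21% lower at that day.

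Genes that fold and export collagen had positive medians where the basement membrane genes had negative ones, on the deposited scale. Of 18 measured, 3 were called higher and 1 lower at day 1 (median 0.45), both counts below the shares over all rows (22.5% and 12.5%), and 8 were higher and none lower at day 2 and at day 3 (medians 0.72 and 0.90), where 23.7% and 15.7% of all rows were higher. Rescaled to a common sum, the day 1 median was -0.0089, with none higher and 3 lower (10.6% and 24.7% of all rows), and 2 were higher and 1 lower at day 2 (9.55% and 25% of all rows). Plod2, a lysyl hydroxylase, measured 21.3 FPKM at day 1, 44.5 FPKM at day 5 and 22.0 FPKM at day 10, against 9.12 FPKM in quiescent. P4ha3, a prolyl hydroxylase subunit, measured 22.1 FPKM at day 5 and 8.58 FPKM at day 10, against 2.39 FPKM in quiescent. Plod3, another lysyl hydroxylase, measured 69.0 FPKM at day 1, against 31.6 FPKM in quiescent. Loxl2, which cross-links collagen IV, measured 51.1 FPKM at day 1, against 109 FPKM in quiescent.

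Of 14 proteases and inhibitors that act on basement membranes, 13 were measured, and 2 were called higher and 6 lower at day 1 (median -1.30). At that day 22.5% of all rows were higher and 12.5% lower, so the count of higher genes lies below the background. Timp1 measured 1581 FPKM and the stromelysin Mmp3 242 FPKM at day 1, against 15.9 and 23.4 FPKM in quiescent. The inhibitors Timp2 (231 FPKM) and Timp3 (55.6 FPKM) were lower at day 1, against 1164 and 236 FPKM in quiescent. At day 5, 2 were higher and 2 lower, the same 4 genes, where 8.42% of all rows were higher and 4.61% lower. Timp1 measured 172 FPKM at day 10, and was the gene of this list called at that day, higher, where 3.09% of all rows were.

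The fibrillar and microfibrillar collagens of the interstitial matrix took another course. Of 8 such genes, 4 were called lower and none higher at day 1 (median -1.03), near the members' own median of that day. Among all rows 12.5% were lower and 22.5% higher at day 1. Rescaled to a common sum, 7 of the 8 were lower at day 1 (median -1.57), where 24.7% of all rows were. Col6a1 measured 230.3 FPKM at day 1, against 719 FPKM in quiescent, and Col5a1 measured 96.2 FPKM, against 276 FPKM in quiescent. At day 2 none of the 8 was called (median -0.014), where 23.7% of all rows were higher and 10.9% lower. When rescaled to a common sum, however, 3 were lower at day 2, where 25% of all rows were. At day 5, 5 were higher and none lower (median 1.16), where 8.42% of all rows were higher and 4.61% lower. When rescaled to a common sum, 2 were higher at day 5 (median 0.78), where 4.2% of all rows were higher. Col1a1 measured 4756 FPKM and Col3a1 6575 FPKM at day 5, against 1174 and 2121 FPKM in quiescent. At day 10, Col1a1 (4146 FPKM) and Col1a2 (3772 FPKM, against 1528 FPKM in quiescent) led the 4 that were called higher, where 3.09% of all rows were.

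The collagen IV chains summed to 0.22 times the collagen I chains in quiescent, then 0.30, 0.10, 0.070, 0.051, 0.061, 0.081 and 0.085 at days 1, 2, 3, 4, 5, 7 and 10. This ratio was chosen after the values were seen, and it does not depend on the scaling. It was below its quiescent value from day 2 to day 10.

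**Figure D4:**
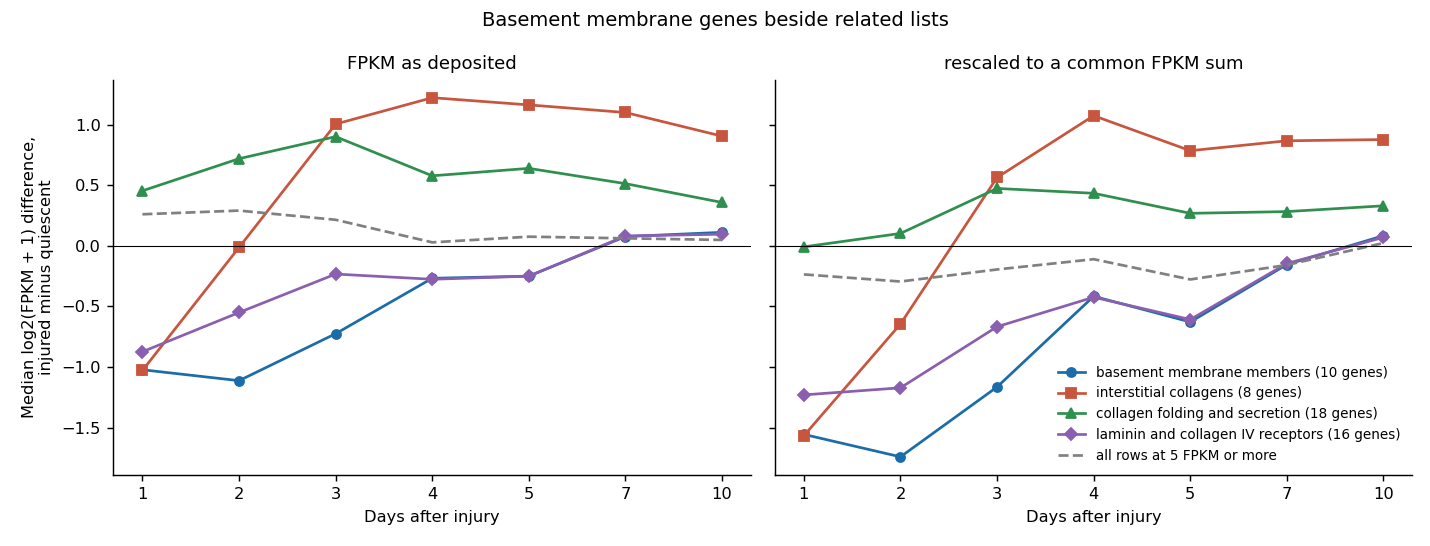
Median log2(FPKM + 1) difference, injured minus quiescent, of the basement membrane genes and 3 related lists at each injured day, on FPKM as deposited (left) and rescaled to a common sum (right); the dashed line is the median of all rows at 5 FPKM or more. The basement membrane line is lowest at day 2 (-1.11 as deposited) and the interstitial collagen line is above 0.5 from day 3 on in both panels.

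The genes whose course over the 8 libraries was most like the mean course of the 10 members were ranked by Pearson's r of log2(FPKM + 1), among 4270 rows with 10 FPKM or more in some library and a range of at least 1. The first 10 were Sult1a1, Mtus1, Grina, Dcn, Podn, Kcp, Lmbr1l, Ccpg1, Zscan26 and Itih5, with r from 0.9987 for Sult1a1 to 0.986 for Itih5. Dcn encodes decorin, an abundant small proteoglycan of the interstitium, and measured 1837 FPKM at day 1 and 1502 FPKM at day 2, against 4577 FPKM in quiescent. Podn, which encodes the related podocan, measured 12.8 FPKM at day 1, against 98.8 FPKM in quiescent. Among the members, Lama2 followed the mean of the other 9 most closely (r = 0.98) and Nid2 least (r = 0.59).

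Other cell types of muscle also make basement membrane, and their markers moved across the same libraries. The 11 pericyte and smooth muscle markers summed to 26.1 FPKM at day 1 and 263 FPKM at day 10, against 141 FPKM in quiescent. Of the 11, 9 were called lower at day 1, where 12.5% of all rows were. The 10 Schwann cell markers in the table summed to 8.13 FPKM at day 1 and 165 FPKM at day 10, against 145 FPKM in quiescent. The 12 endothelial markers summed to 10.9 FPKM at day 1, against 90.4 FPKM in quiescent, of which Tek gave 7.34 and 68.9 FPKM. Emcn and Erg were at the floor of 0.001 at day 1, and Pecam1 was at most 1.93 FPKM in any library. The 12 muscle fibre markers summed to 12.4 FPKM at day 1 and 144 FPKM at day 7, against 42.6 FPKM in quiescent. Of the 8 satellite cell and myoblast markers, 4 reached 1 FPKM and Pax7 was at most 0.18 FPKM. Vcam1, which other cells also express, gave 20.5 of the summed 21.0 FPKM at day 1, against 7.48 of 10.6 FPKM in quiescent. The pericyte, Schwann, endothelial and muscle fibre sums were low at day 1, when 6 members were called lower, and their part in the members' differences was not tested.

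**Figure D5:**
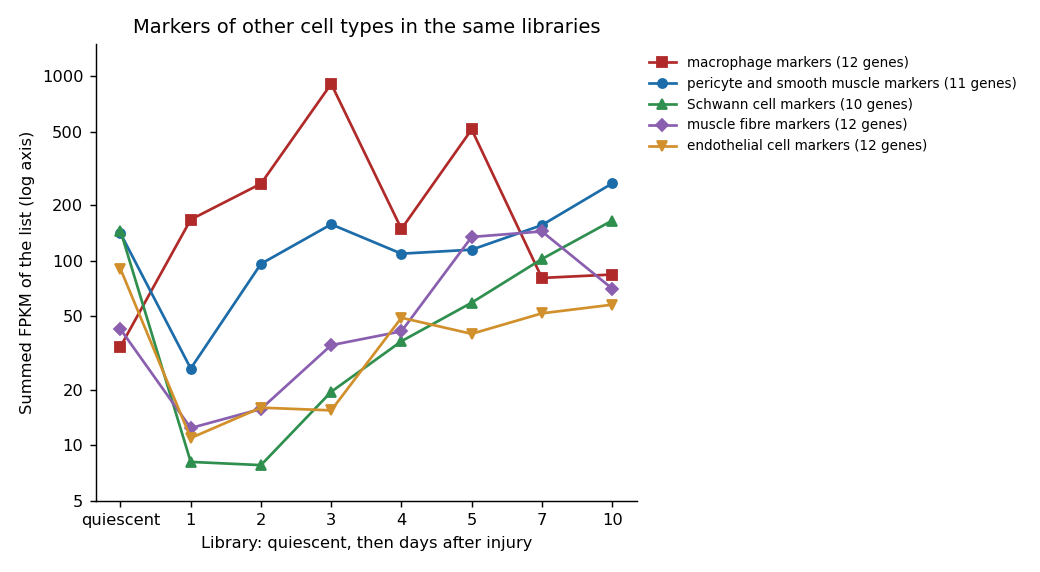
Summed FPKM (log axis) of 5 marker lists of other cell types in the 8 libraries, 1 library per point. Pericyte, Schwann, muscle fibre and endothelial sums are at or near their lowest at day 1, and the macrophage sum is 912 at day 3, 149 at day 4 and 516 at day 5.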

How the data were processed

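FPKM (fragments per kilobase of transcript, scaled to the mapped fragments of a library) were computed by the authors and deposited as 1 table of 8 libraries, 1 per time point. The build is mm10 and the tools named are Cufflinks, TopHat2, Bowtie2 and bcl2fastq, per the submitters' processing notes. For versions, annotation, filters and the use of strand, the state is: not given in the sources used here. Each column was matched to its sample by the column name in the sample's description. A value of 0.001 or 0 was read as a floor. Deposited locus starts were raised by 1.

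Differences were taken on log2(FPKM + 1), which understates changes of low genes. A call needed a difference of 1 and 5 FPKM in the higher library, and shares of rows called are over rows with 5 FPKM in the higher library. With 1 library per time point, no p-value was computed. Depth was estimated from 2088 genes with a single GENCODE M21 transcript over 1500 bases: FPKM times length less 150 bases falls in steps worth 1 fragment. Between 75.2% and 80% of the low values lay within 0.15 of a whole number (30% by chance). Counting intervals are at 95%, use the longest coding transcript and cover counting error only. The call rule and the depth estimate were tested on simulated data. Listed symbols absent from the table were looked up by their RefSeq synonyms.

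The members and lists were chosen with earlier results of these data known. Genes of other lists were named when they reached 10 FPKM and were called at day 1, 5 or 10, at most the 2 largest increases and 2 largest decreases per list and day. The marker sums set beside single results were chosen after their values were seen. The pattern search used rows spanning 200 bases or more. Alternatives were 3 rescalings, pseudocounts of 0.1 and 5, no minimum, a 1.5-fold limit, the day 10 library as reference and summed rows per symbol. Python 3.11.15, numpy 2.4.6, pandas 2.3.3 and matplotlib 3.10.9 were used.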

Additional observations from a re-analysis of the deposited data

How the results depend on the processing

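All 18 calls of single members were lower. Each kept its side under the 3 rescalings, a pseudocount of 0.1 and summed rows per symbol, but these outcomes were fixed in advance. Each rescaling moves every injured library down against quiescent, a smaller pseudocount widens differences, and no member stands on several rows. A pseudocount of 5 could remove a call, and 16 of 18 stayed. None of these settings could change the sign of a called difference. Rescaling added calls: 4 under median-ratio scaling and 9 under each common sum. Members called lower at days 1 and 2 numbered 10 and 10 under either common sum (over all rows, or over rows spanning 200 bp or more), against 6 and 6 as deposited. At day 5 they numbered 2 under either common sum, against 1 as deposited. The share of all rows called lower at day 5 was 11.5% at a common sum and 12.3% at a common sum over the longer rows. The limit of 1.5-fold gave 2 lower at day 4, 2 lower at day 5 and 1 higher (Lamb1) at day 7. Against the day 10 library, 0 were lower at day 5. For the 1.5-fold limit and the day 10 reference, shares over all rows were not computed, so these counts have no background beside them. The median member difference at day 7, 0.08 as deposited, was -0.013 under median-ratio scaling, -0.15 at a common sum and -0.14 at a common sum over the longer rows. No paired analysis was possible because each time point has 1 library, so the number 1 that all 8 carry only names the sample. For the same reason no replicate could be left out. Counting error was small, but it reached across the call limit for the differences nearest to it. These were Lamb1 at day 1 (-1.01, SE 0.026), Lamc1 at day 3 (-1.01, SE 0.019) and Hspg2 at day 2 (-0.9995, SE 0.014). Differences between animals, sorts and library preparations were not measured.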
